A study of Sus scrofa with 4 samples.

Results

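The genes described here encode ligands and secreted antagonists of the WNT pathway, together with β-catenin (CTNNB1) and ENC1. They were measured in porcine intramuscular preadipocytes (PIP) and in cells derived from them that the paper names mature adipocytes (pMA). Members were the array probes whose listed gene name was DKK1, DKK2, DKK3, SFRP1, SFRP2, FRZB, WNT5A, WNT10B, CTNNB1 or ENC1. Of these 10 genes, 8 had a probe, out of 34853 gene names on the array, and 24 probes covered them. SFRP1 and SFRP2 were not analysed here. The genes were picked with the values of these arrays known, so their levels and ratios are descriptions and no test was made on them.

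PIP is a cell line from the longissimus thoracis muscle of a Duroc pig, and the PIP group was neither differentiated nor stimulated. The pMA group had been kept for 4 days in a differentiation medium with insulin, dexamethasone, octanoate and oleate and received no stimulus. The other 2 groups were pMA stimulated for 12 h with 2.5 µg/mL TNF-α or with 100 µM serotonin (5-HT), a dose that the sample labels write as μM per ml. Each group was 1 array hybridised with RNA that, according to the methods, had been pooled within the group, so no difference between conditions has a replicate check. All groups rest on 1 cell line. The methods describe no vehicle-treated control and do not say when unstimulated pMA were harvested. Any difference in culture time therefore cannot be told apart from a stimulus.

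WNT ligands are secreted lipid-modified glycoproteins that bind frizzled receptors. In the canonical branch, binding together with an LRP5 or LRP6 coreceptor spares β-catenin from degradation, and β-catenin then acts with TCF and LEF factors in the nucleus. The secreted antagonists act outside the cell: Dickkopf proteins occupy the LRP coreceptors, while FRZB and the SFRP proteins carry a frizzled-type domain that binds WNT ligands. Canonical WNT signalling is known to hold preadipocytes in the undifferentiated state, and WNT10B is the ligand best known for this.

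Signals are given as scaled signal, that is, the intensity of a probe divided by the 75th percentile of intensity on its array. Of the 24 member probes, 22 were well above background on all 4 arrays, 1 on the TNF-α array alone and 1 on no array. No member spot was saturated or marked as an outlier. Spots of the same probe repeated within an array had a standard deviation of 0.10 to 0.13 on the log2 scale, which gave a technical standard deviation of 0.15 to 0.17 for a log2 ratio between 2 arrays. This covers the noise of spots within an array and not the spread between cultures. A difference is called beyond spot noise below when it exceeded 2 of these standard deviations.

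The probes are oligonucleotides of 60 bases, for which the files give no genome position. Those of DKK2 and WNT5A are shown because each gene rested on a single probe, that of DKK1 because it stayed dim, one of the 7 FRZB probes because that gene had concordant ratios, and the rest because probes of the same gene disagreed. Each is named by its start within the listed transcript. For the DKK2 and WNT5A probes and for the later ENC1 probe the first 30 bases are given. Capitals in the DKK1 probe mark a stop codon.
DKK1, from base 741: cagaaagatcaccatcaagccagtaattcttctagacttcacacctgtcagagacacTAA
DKK2, from base 3542: cagaaagctttgtagcagaatatatttgca
DKK3, from base 376: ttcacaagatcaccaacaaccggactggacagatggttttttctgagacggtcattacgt
FRZB, from base 621: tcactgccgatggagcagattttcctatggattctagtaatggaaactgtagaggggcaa
WNT5A, from base 4311: ctggataaccttgtaacacattgaaaccta
WNT10B, from base 734: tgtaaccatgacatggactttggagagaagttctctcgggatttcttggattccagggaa
ENC1, from base 794: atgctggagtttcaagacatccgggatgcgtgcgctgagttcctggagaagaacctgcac
ENC1, from base 2231: ccctgcatgatcaagatgagatttctactt

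The antagonist DKK2 had the widest range of all members over the 4 arrays, 35.0-fold. Its scaled signal was 16.3 in PIP cells, 12.4 in pMA, 9.46 after TNF-α and 0.466 after serotonin. The serotonin array therefore stood far below the other 3, whose neighbouring levels differed by 0.40 and 0.38 on the log2 scale, only slightly more than spot noise. Serotonin-stimulated pMA were 26.5-fold below unstimulated pMA (log2 ratio -4.73), and among 17364 gene names measured on both arrays DKK2 had the lowest ratio. The corresponding ratio after TNF-α was -0.38. Compared directly, DKK2 was 20.3-fold lower after serotonin than after TNF-α (log2 ratio -4.34). A single probe carries these values, and it remained well above background on the serotonin array.

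DKK1 and DKK3, the other Dickkopf genes of the set, differed from DKK2. The DKK1 probe was not well above background on any array, with scaled signals of 0.0118 in PIP cells, 0.00897 in pMA, 0.00579 after TNF-α and 0.0132 after serotonin. The faintest signals well above background were 0.0286, 0.0402, 0.0263 and 0.0287 on the same arrays, so no ratio was formed for DKK1. DKK3 encodes a divergent Dickkopf protein that, unlike DKK1, is not a typical blocker of the coreceptor. Its brightest probe gave 196 in PIP cells, 267 in pMA, 225 after TNF-α and 178 after serotonin. This made pMA the highest and serotonin the lowest array, although no 2 neighbours in that order were separated beyond spot noise.

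The 3 DKK3 probes were lower after serotonin than in unstimulated pMA in each case, with log2 ratios from -0.69 to -0.58, and lower after TNF-α, from -0.40 to -0.24. All stayed within 2-fold. Between pMA and PIP cells they did not match: the log2 ratios were 0.39 and 0.44 for the probes that begin at bases 2274 and 2316, and 1.26 for the probe from base 376. That early probe had scaled signals of 1.27 in PIP cells, 3.03 in pMA, 2.29 after TNF-α and 1.93 after serotonin. By this probe PIP cells, and not serotonin-stimulated pMA, were lowest.

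FRZB, a secreted WNT-binding protein also called SFRP3, had 7 probes that placed the arrays in the same order, with PIP cells highest, followed by pMA, TNF-α and serotonin. Each neighbouring pair in that order was separated beyond spot noise by each probe. The brightest probe had a scaled signal of 7.09 in PIP cells, 3.85 in pMA, 2.09 after TNF-α and 0.824 after serotonin. The serotonin array was thus 8.60-fold below the PIP array by this probe.

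Against unstimulated pMA, the FRZB probes had a median log2 ratio of -2.26 after serotonin, ranging from -2.56 to -2.06, which is 4.18-fold to 5.88-fold lower. After TNF-α the median was -0.84, the smallest difference was -0.71 and 1 of the 7 probes reached 2-fold. In the direct comparison all 7 were lower after serotonin than after TNF-α, by 2.45-fold to 3.01-fold. In pMA against PIP cells the median was -0.96 and 2 of the 7 probes were at least 2-fold lower, while the brightest, which represents the gene in the counts, had -0.88. The standard deviation of the log2 ratios over the FRZB probes lay between 0.10 and 0.20 in the 4 comparisons. Over gene symbols with several measured probes, the standard deviation between probes was 0.18 to 0.36 when pooled and 0.10 to 0.24 as a median. For serotonin against pMA, FRZB had 0.17, between the median of 0.11 and the pooled 0.21. Probes of a gene share the hybridised RNA and are not replicates.

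**Figure D1:**
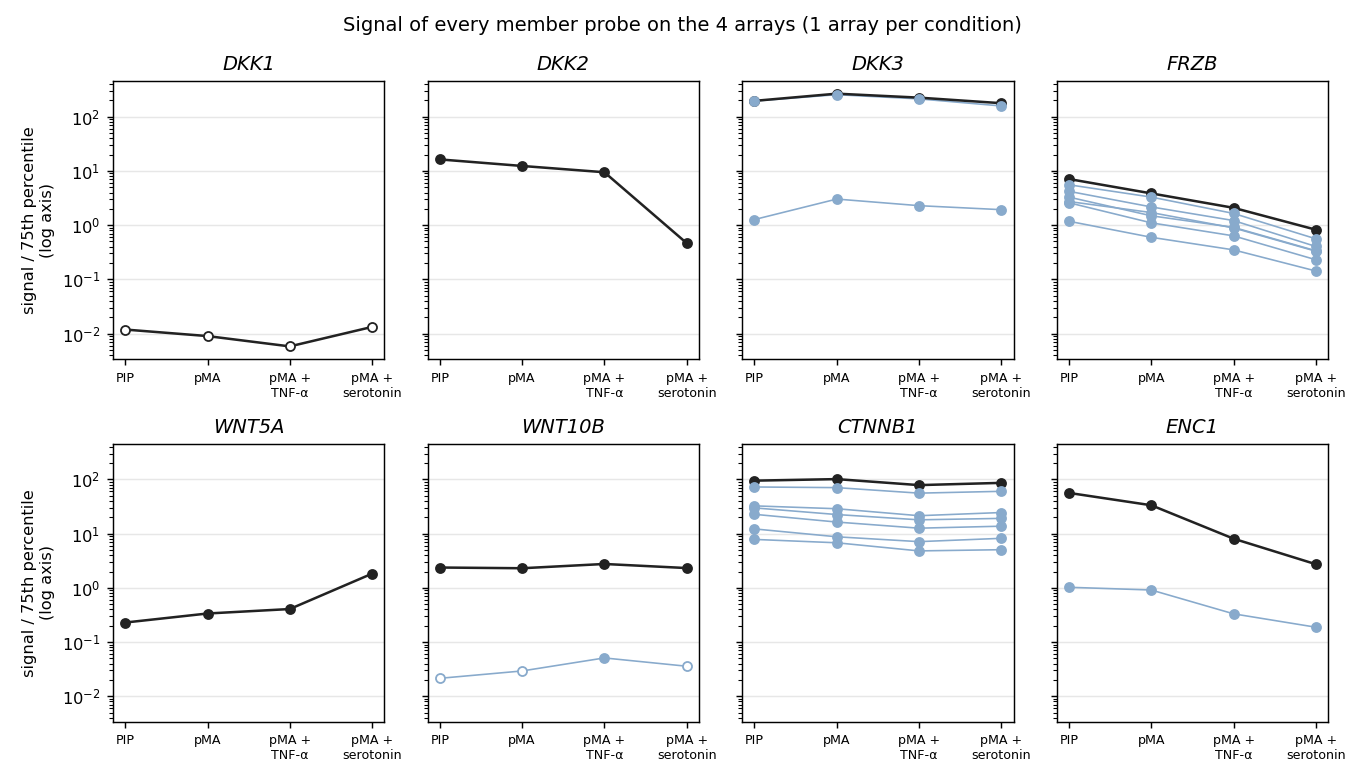
Scaled signal (intensity over the 75th percentile of the array, log axis) of each probe of the 8 genes on the 4 arrays, 1 array per condition. Each line joins the values of a single probe, black for the brightest probe of the gene, and open points were not well above background; DKK2, FRZB and ENC1 were lowest and WNT5A highest after serotonin.

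WNT5A encodes a ligand best known for β-catenin-independent signalling through ROR and frizzled receptors. It was the only member at least 2-fold higher after serotonin than in unstimulated pMA. Its scaled signal was 0.229 in PIP cells, 0.336 in pMA, 0.406 after TNF-α and 1.82 after serotonin. The serotonin array was above the other 3, the pMA and TNF-α arrays were not separated beyond spot noise, and PIP cells were lowest. WNT5A was 5.43-fold higher after serotonin than in unstimulated pMA (log2 ratio 2.44), the 29th highest of the 17364 measured ratios. After TNF-α the log2 ratio was 0.27, and the direct comparison put serotonin 4.49-fold above TNF-α. In pMA against PIP cells the log2 ratio was 0.55. These values rest on 1 probe, so no second probe bears on them.

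WNT10B, the ligand known to restrain adipogenesis, varied least of the members detected on all arrays. Its brighter probe gave scaled signals of 2.37 in PIP cells, 2.30 in pMA, 2.76 after TNF-α and 2.32 after serotonin. No neighbouring arrays were separated beyond spot noise, and the whole range was 1.20-fold. The log2 ratio was -0.04 in pMA against PIP cells, 0.01 after serotonin and 0.26 after TNF-α. The sign of the first depended on the scaling, from -0.40 with scaling to the median to 0.33 with scaling to spike-in controls. The other WNT10B probe, from base 734, was well above background on the TNF-α array alone, at 0.0509, and gave only a lower bound there of 1.26-fold over unstimulated pMA.

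CTNNB1 encodes β-catenin, whose activity is governed largely at the protein level, which these arrays do not measure. By its brightest probe the scaled signal was 95.0 in PIP cells, 101 in pMA, 78.6 after TNF-α and 86.5 after serotonin. No neighbouring arrays were separated beyond spot noise, and the range was 1.29-fold. All 7 probes were below unstimulated pMA after either stimulus, with log2 ratios of -0.42 to -0.09 for serotonin and -0.50 to -0.30 for TNF-α, so each stayed within 2-fold. All 7 were lowest after TNF-α, but none separated the TNF-α and serotonin arrays beyond spot noise. In pMA against PIP cells they disagreed in sign, 6 being negative and 1 positive, from -0.48 to 0.09, and the value of the brightest probe changed sign with scaling, from -0.26 with scaling to the median to 0.47 with scaling to spike-in controls.

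ENC1 encodes an actin-binding kelch protein of the ectoderm and neural cortex that has been described as a β-catenin target. Both ENC1 probes ordered the arrays like FRZB and DKK2, from PIP cells through pMA and TNF-α to serotonin. The probe from base 2231 had scaled signals of 56.4 in PIP cells, 33.4 in pMA, 8.07 after TNF-α and 2.73 after serotonin, with each step beyond spot noise. The probe from base 794 had 1.02, 0.911, 0.331 and 0.188 on the same arrays, and here PIP cells and pMA were not separated.

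After serotonin, ENC1 was 12.2-fold below unstimulated pMA by the first of these probes (log2 ratio -3.61, the 6th lowest of the measured ratios) and 4.86-fold below by the other (-2.28). After TNF-α it was 4.14-fold lower by the first probe (-2.05, the 11th lowest of 17636) and 2.75-fold lower by the other (-1.46). ENC1 was therefore the member that lay at least 2-fold below unstimulated pMA after both stimuli. In the direct comparison the probes gave -1.56 and -0.82 for serotonin against TNF-α, on either side of the 2-fold line. The log2 ratios in pMA against PIP cells were -0.76 and -0.17. The size of each ratio depended on the probe by up to 1.33 on the log2 scale, whereas its sign did not at this scaling.

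**Figure D2:**
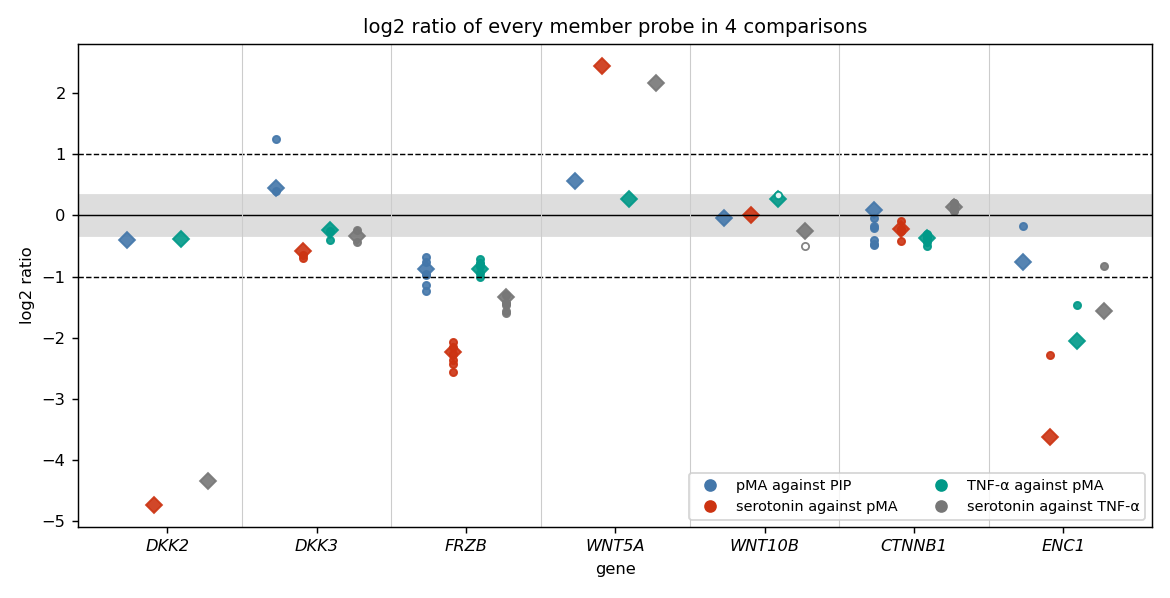
log2 ratio of every member probe in the 4 comparisons, with DKK1 left out since it was dim on all arrays. Diamonds mark the brightest probe of a gene, open symbols are lower bounds, dashed lines mark 2-fold and the grey band is 2 technical standard deviations; the 7 FRZB probes lay between -2.56 and -2.06 for serotonin against pMA.

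By the brightest probe of each gene, 7 members had a ratio in each comparison. None of the 7 differed at least 2-fold between pMA and PIP cells, where 13.5% of 18630 gene names did, 9.94% higher and 3.56% lower in pMA. The median log2 ratio of the members was -0.04 and that of all gene names 0.12. Scaling shifted this comparison as a whole: the median of all gene names was -0.22 with scaling to the median and 0.52 with scaling to spike-in controls. Under 10 settings, the main one included, DKK2 stayed between -0.75 and -0.03, FRZB between -1.23 and -0.50 and ENC1 between -1.11 and -0.38. WNT5A stayed between 0.20 and 0.93 and DKK3 between 0.09 and 0.82.

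Serotonin gave 4 of 7 members at least 2-fold away from unstimulated pMA, with DKK2, ENC1 and FRZB lower and WNT5A higher, beside 6.82% of 19094 gene names. Lower ratios of that size were found for 4.73% of gene names and higher ones for 2.08%. The median of the members was -0.58 and that of all gene names 0.01. TNF-α gave 1 of 7, ENC1, beside 3.56% of 19779 gene names, 2.21% being higher and 1.34% lower, with a member median of -0.37 and 0.01 for all gene names. Both comparisons use the same unstimulated array, so its chance values enter both. In the direct comparison of serotonin with TNF-α, which does not use that array, DKK2, ENC1 and FRZB were at least 2-fold lower after serotonin and WNT5A at least 2-fold higher, beside 6.9% of 21859 gene names, with 1.83% higher and 5.07% lower after serotonin. The direct comparison reuses the serotonin and TNF-α arrays, so their chance values enter it as well. The genes were chosen with these ratios known, and nothing is read from the counts beyond the values themselves.

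**Figure D3:**
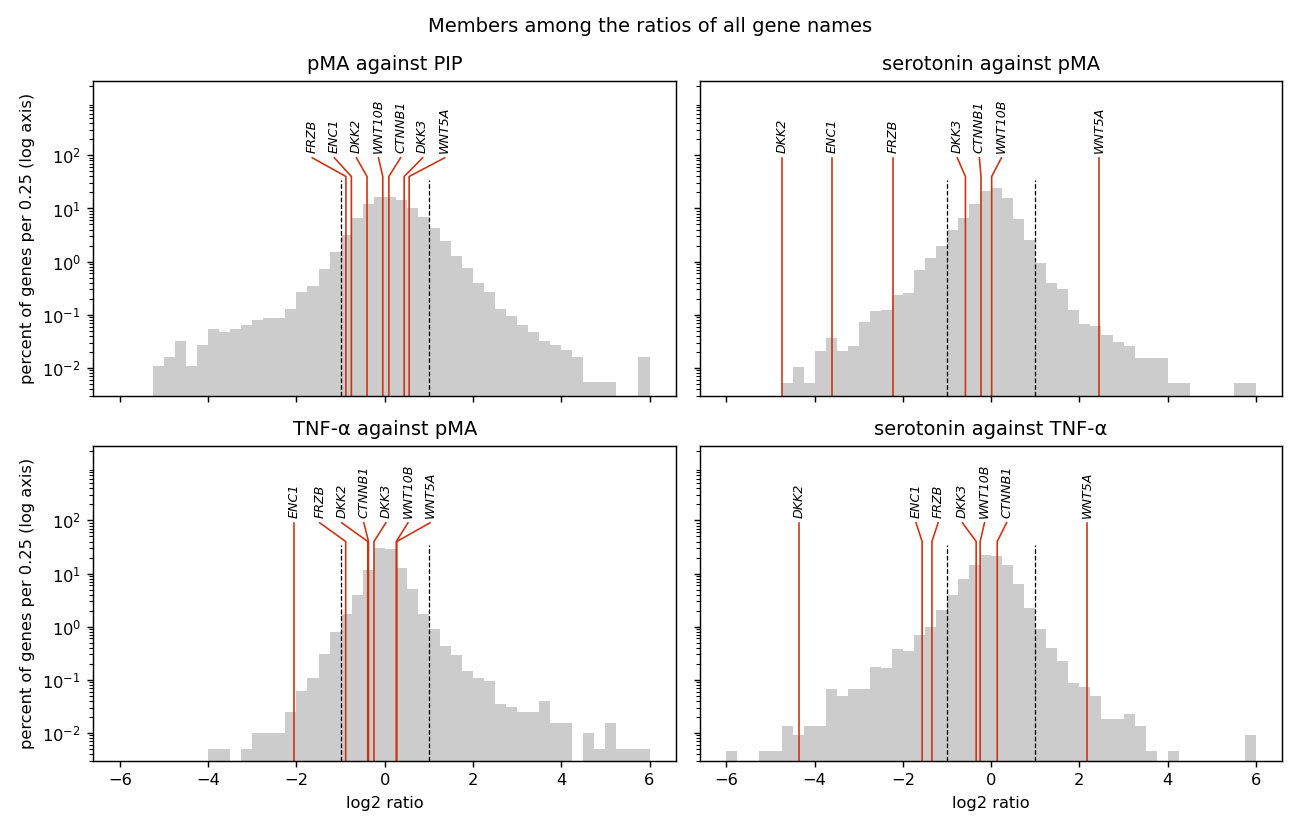
Distribution of log2 ratios over all gene names with a ratio (grey bars, percent per bin, log axis; the end bins hold ratios beyond them) in the 4 comparisons, with the members as red lines and 2-fold as dashed lines. DKK2 (-4.73) and ENC1 (-3.61) lay in the lower tail and WNT5A (2.44) in the upper tail for serotonin against pMA.

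The other genes of the pathway were taken from a list of 108 genes written from general knowledge, of which 45 were matched to a probe, 42 by name and 3 by accession. The match covered 2 of 17 further ligands and 7 of 15 receptors and coreceptors. Among the further antagonists, SFRP4, a frizzled-related protein, was lower after serotonin as well. It had scaled signals of 68.8 in PIP cells, 48.9 in pMA, 39.1 after TNF-α and 12.1 after serotonin. Serotonin-stimulated pMA were 4.02-fold below unstimulated pMA (log2 ratio -2.01), while the log2 ratio after TNF-α was -0.32. SFRP5, another family member, was dim in PIP cells, and pMA exceeded them by at least 11.5-fold. Its log2 ratio was -0.31 after serotonin and 0.76 after TNF-α. WIF1, which binds WNT ligands, was dim in both PIP cells and unstimulated pMA, whereas TNF-α brought a signal at least 3.92-fold above the latter. In the direct comparison SFRP4 (-1.69), WIF1 (-1.38) and SFRP5 (-1.07) were lower after serotonin than after TNF-α, and of the 5 further antagonists with a ratio none was higher. Beside them, 5.07% of all gene names were at least 2-fold lower, and the median of all gene names was -0.04. KREMEN1, at -0.08, was within spot noise, and DKK4, dim after serotonin, gave only a bound of at least 1.84-fold lower.

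By their brightest probes, 7 of 7 receptors and coreceptors with a ratio stayed within 2-fold in each of the 4 comparisons, in which 13.5%, 6.82%, 3.56% and 6.9% of all gene names did not. The other FZD10 probe, however, had -1.498 for serotonin against TNF-α and -0.99 for serotonin against pMA, where the brightest had 0.19 and 0.16. Probes that the array only describes as frizzled-8 and frizzled-9 are outside this count. Frizzled-8 had -1.05 for serotonin against pMA, and frizzled-9 had -1.21 for serotonin against TNF-α. The counted receptors included, named here for their roles after their values were seen, LRP6, the coreceptor of the canonical branch, at -0.11 after serotonin and -0.04 after TNF-α, and ROR2, a WNT5A receptor, at -0.76 and -0.31. The 8 cytoplasmic transducers with a ratio also stayed within 2-fold in all 4 comparisons. Of the nuclear factors, 1 of 9 passed 2-fold between pMA and PIP cells and none passed it in the other comparisons, again by the brightest probes and beside 13.5% of all gene names in the first. That gene was BCL9, a β-catenin cofactor, at -1.39, but its other probe had 0.62. TCF7L2, a partner of β-catenin on DNA, had -0.49 by its brightest probe and up to 1.06 by another.

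Among 8 commonly cited WNT targets with a ratio, 4 were at least 2-fold away after serotonin, 2 in each direction, beside 2.08% of all gene names higher and 4.73% lower. FST, which encodes the activin-binding protein follistatin, had a log2 ratio of -2.26, and the CCN family gene WISP2 had -1.23. TBX3, a T-box repressor, was 2.82-fold higher and MYC, a growth-promoting factor, had a log2 ratio of 1.24. The 5 TBX3 probes ranged from 1.49 to 1.76 and the 3 MYC probes from 1.15 to 1.24. After TNF-α, FST was lower (-2.06) and WISP1 higher (1.04), and the 2 FST probes differed by up to 0.71 in these comparisons. Serotonin against TNF-α gave TBX3 at 1.80, CYR61 at -1.19 and WISP2 at -1.06. Targets thus lay on both sides of 0.

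Between pMA and PIP cells, 5 listed genes were at least 2-fold higher and 3 lower. Besides SFRP5 the largest were FST (2.81), MYC (-1.65), the planar polarity cadherin CELSR3 (at least 2.88-fold higher), the ligand WNT2B (-1.46) and BCL9. The others were WISP1 and CD44, whose other probe had -0.03. The other WNT2B probe gave a ratio in this comparison alone, at -0.87, which may be only a bound. The listed genes at least 2-fold away were 19.0% in that comparison, 11.6% after serotonin, 8.89% after TNF-α and 13.3% for serotonin against TNF-α, beside 13.5%, 6.82%, 3.56% and 6.9% of all gene names. DAAM1, a formin of the planar polarity branch, was the remaining gene past 2-fold after TNF-α, at -1.14, with its other probe at -0.40. The median log2 ratio of the list was 0.10, -0.09, -0.17 and -0.02 in the same order.

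**Figure D4:**
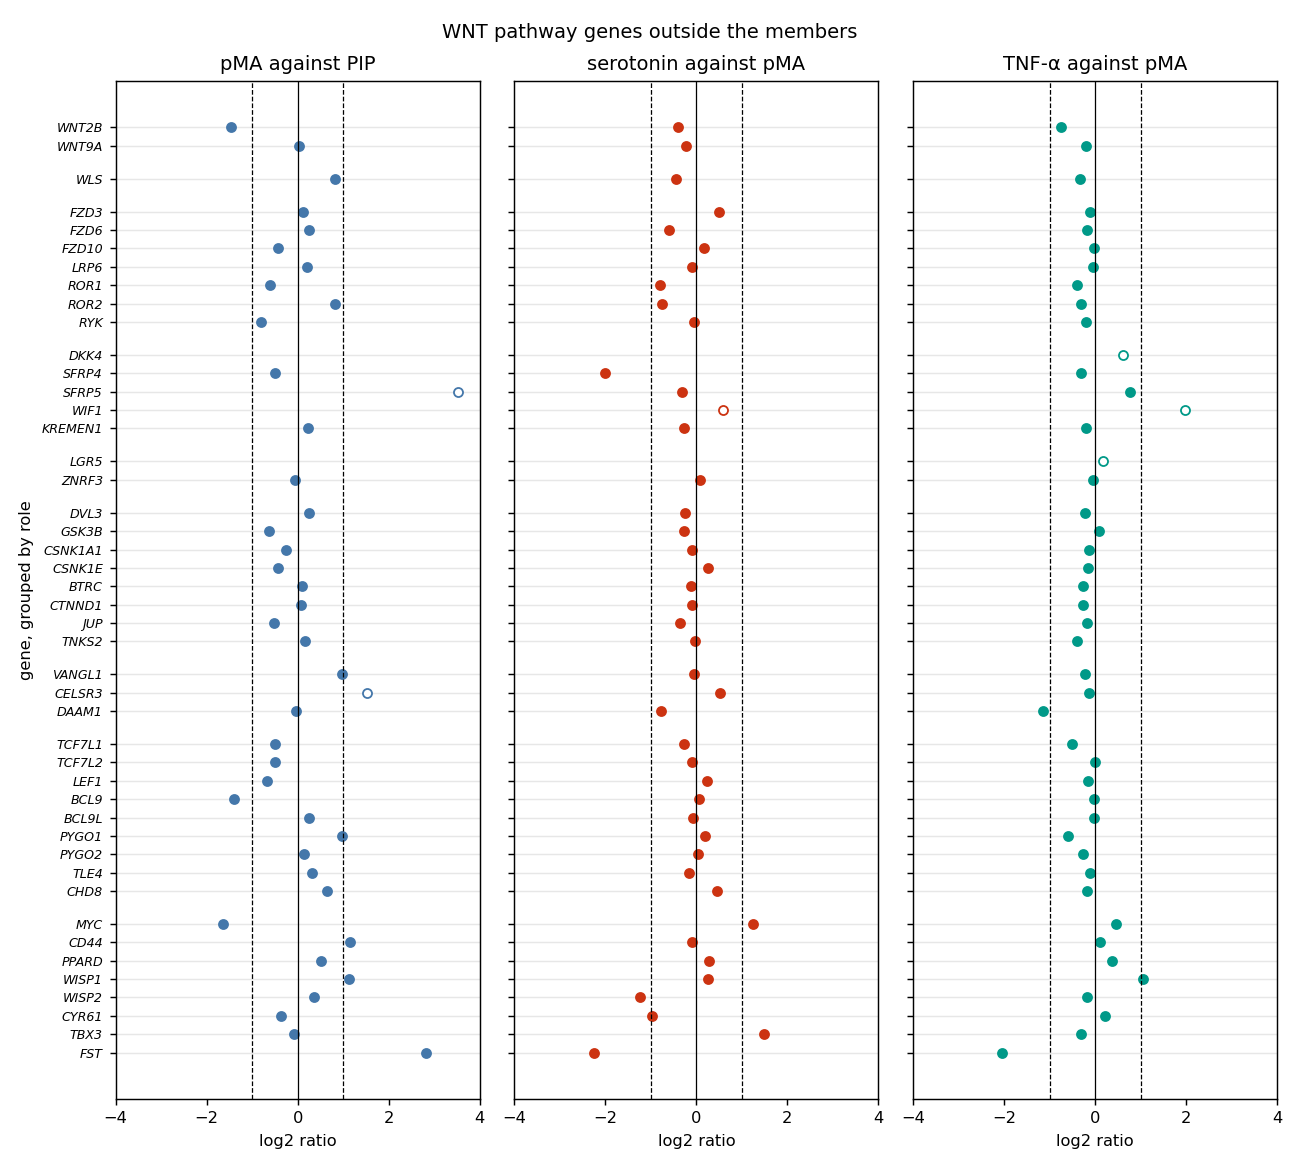
log2 ratio of the 45 listed WNT pathway genes on the array in 3 comparisons, grouped from top to bottom as ligands, ligand secretion, receptors, antagonists, R-spondin axis, cytoplasmic transducers, planar polarity, nuclear factors and targets. Open points are lower bounds, dashed lines mark 2-fold and genes dim on both arrays have no point; SFRP4 (-2.01) and FST (-2.26) were the lowest points for serotonin.

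For the 3 members with the widest ranges, the gene names closest in pattern were sought among 4633 that were well above background on all arrays. Each probe was centred on its own mean, and likeness was the root mean square difference over the 4 arrays. Nearest to FRZB were PKDCC, at 0.11 on the log2 scale, DLX2, at 0.22, and CXCR2, at 0.23. PKDCC had scaled signals of 8.61 in PIP cells, 4.35 in pMA, 2.15 after TNF-α and 1.03 after serotonin. Nearest to ENC1 was FRZB itself, at 0.61, followed by PKDCC and DLX2, at 0.62 and 0.70. Nearest to DKK2 were LDB3, GAL and AQP1, at 0.83, 0.84 and 0.88. The distance was not scaled to the range of a gene, and DKK2 had the widest range, so its larger distances add nothing to that. With 4 arrays these distances are descriptions of the profiles.

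Cell type markers moved over the same arrays. The adipocyte list had 9 of 12 genes well above background in PIP cells, 9 in pMA, 10 after TNF-α and 9 after serotonin, and its summed scaled signal was 3.89, 17.1, 23.7 and 40.4. Of the defining markers, PLIN1 was not detected above background on any array, ADIPOQ on the PIP array alone (scaled signal 0.043) and CEBPA on the TNF-α array alone, so none of these was detected in unstimulated pMA. FABP4, a fatty acid carrier, was dim in PIP cells (0.037) and detected in pMA (0.314), after TNF-α (0.855) and after serotonin (0.046). The lipid droplet gene PLIN2 (1.22, 10.74, 11.3 and 21.4 in the order of the sums), the fatty acid transporter CD36 (0.063, 2.27, 3.15 and 6.29) and LPL (1.54, 2.00, 4.85 and 10.65) made up most of the sum after serotonin. PPARG had 0.051, 0.108, 0.201 and 0.102. The preadipocyte and fibroblast list, with 7 of 8 genes on the array, had a summed signal of 478 in PIP cells, 471 in pMA, 378 after TNF-α and 256 after serotonin, with 5, 6, 7 and 5 genes above background. COL1A2 made up most of this sum, at 404, 374, 307 and 198. The sum was thus lowest on the array on which DKK2, FRZB and ENC1 were lowest. LUM, of the same list, had 7.72, 26.7, 21.2 and 22.0, so it was lowest in PIP cells. DCN, at 11.9, 19.0, 11.0 and 8.49, rose from PIP cells to pMA but was lowest after serotonin, as were THY1 and COL1A1. The paper reports significant, dose-dependent cell death and less fat accumulation in differentiated adipocytes after serotonin. The highest dose of that assay was the one used for the serotonin array. No measure of cell death is given for the array cultures themselves. In pooled RNA, fewer cells of a type and less RNA per cell cannot be told apart. The part of cell death and of these markers in the ratios of the members was not tested.

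Markers of other lineages were mixed. MYF5 and MYOD1 of muscle, and CDH5 and TEK of endothelium, were at background on all arrays. The summed signal was 6.97 to 12.3 for the muscle list, 0.483 to 1.59 for the endothelial list and 1.59 to 3.08 for the macrophage list, of which 2 of 6 genes had a probe. The muscle and endothelial sums were also lowest after serotonin. Most of the muscle sum was DES, at 9.60 in pMA and 4.72 after serotonin, whereas PAX7 was highest after serotonin, at 1.47 against 1.12 in pMA, and MYOG had 0.774 in pMA and 0.766 after serotonin. Their part in the results was not tested. Between 56.5% and 66.0% of all probes were well above background, the highest share after TNF-α, and the 75th percentile of intensity was 479 to 566.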

How the data were processed

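RNA from PIP cells, pMA, pMA stimulated with TNF-α and pMA stimulated with serotonin was measured on 4 arrays, 1 per condition, all on 1 slide. The methods describe both a mouse array and dual-color porcine slides. The deposited intensity values are of porcine probes with Cy3 alone, and the labels name Agilent Feature Extraction 10.7.3.1. The deposited gProcessedSignal intensity is background-subtracted. The deposited series table held linear ratio values, equal to this intensity over a constant for each array within 0.000135%. That constant lay close to the 75th percentile over all 45220 spots, and the table was used only as an alternative.

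Control spots and outlier spots (1 to 12 an array) were removed, leaving 43803 non-control spots for 43603 probes before the outlier filter. The log2 intensity minus the log2 75th percentile of each array was used. The probe with the largest mean over the arrays stood for its gene. If only 1 array of a pair was well above background, the dim value was raised to the faintest such signal of its array where it lay below it, which gives a lower bound, and pairs dim on both arrays got no ratio. With 1 array per condition no test or p-value was computed, and counts use the 2-fold cutoff of the methods. The number of arrays limits the precision.

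All members were named. Listed pathway genes were named when at least 2-fold away, with values for at most the 6 largest in a comparison. The genes, lists and cutoffs were chosen with earlier results of these data known. Symbols came from the files, and 3 listed genes were matched by accession through a RefSeq table. Alternatives covered the scaling, background correction (limma 3.58.1, R 4.3.3, normexp with an offset of 50), filters, cutoffs and the choice of probe. The ratio step was tested on simulated data. Python 3.11.15, pandas 2.3.3, numpy 2.4.6 and matplotlib 3.10.9 were used.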

Additional observations from a re-analysis of the deposited data

How the results depend on the processing

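No paired analysis was possible because each condition had 1 array, and for the same reason no replicate could be left out. DKK2, ENC1, FRZB and WNT5A kept the direction of their serotonin and TNF-α ratios under 10 settings, the main one included, of scaling, background correction, filter and probe choice. The filters left these ratios unchanged, and probe choice could not act on DKK2 and WNT5A, which had 1 probe each. Rescaling an array by a constant shifts all measured ratios of a comparison alike. With spike-in controls it moved DKK2 after serotonin only from -4.73 to -4.60. The serotonin ratios of these genes were too large for such a shift to turn, so their kept direction adds nothing. The WNT5A ratio after TNF-α (0.27) was within spot noise at the main scaling, so nothing is read from its direction. After serotonin DKK2 lay between -4.77 and -4.41, ENC1 between -3.62 and -2.95, FRZB between -2.28 and -2.03 and WNT5A between 2.09 and 2.57. Between pMA and PIP cells, scaling to the median gave 2 members at least 2-fold away and a member median of -0.40, scaling to spike-in controls, chosen after seeing the data, gave a median of 0.33 and 13 listed pathway genes, and no filter on dim probes gave a median of -0.22. After serotonin the member median was -0.40 with quantile normalization and -0.41 with no filter. With normexp, 5 listed genes passed between pMA and PIP cells, 1 after TNF-α and 3 for serotonin against TNF-α. At a 4-fold cutoff 2 listed genes passed between pMA and PIP cells, 2 after serotonin, 1 after TNF-α and 0 for serotonin against TNF-α, where 2 members passed. At 1.5-fold, 2 members and 17 listed genes passed between pMA and PIP cells, 11 listed genes after serotonin, 2 members and 8 listed genes after TNF-α and 13 listed genes for serotonin against TNF-α. Apart from the changed cutoffs, the cause of these moves was not tested. Of 124 alternative values of the counts and medians, 103 stayed within their limits and 21 moved. Scaling also moved the share of 2-fold gene names that were higher in pMA than in PIP cells, from 73.6% to 33.9% with the median, 54.6% with quantile normalization and 93.0% with spike-in controls. The share that was higher after serotonin moved from 30.6% to 47.2% with spike-in controls, that after TNF-α from 62.2% to 49.4% with quantile normalization and 73.7% with spike-in controls, and that for serotonin against TNF-α from 26.5% to 41.0% with the median. The percentage of gene names past 2-fold lay between 4.45% (normexp) and 24.1% (spike-in controls) for pMA against PIP cells, and from normexp to no filter between 3.15% and 11.2% after serotonin, 1.41% and 9.28% after TNF-α, and 3.18% and 12.8% for serotonin against TNF-α.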

Other observations

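Some probes outside the gene names above are described by the array as WNT pathway genes. A probe described as WNT2, a ligand, had scaled signals of 0.0652 in PIP cells, 0.113 in pMA, 0.273 after TNF-α and 0.0919 after serotonin, so its log2 ratio was 1.28 for TNF-α and -0.30 for serotonin against unstimulated pMA. A probe described as frizzled-8, a WNT receptor, had 0.994, 0.769, 0.545 and 0.372 on the same arrays, and its log2 ratio after serotonin was -1.05. A probe described only as a Wnt protein was well above background on the serotonin array alone, at 0.0922, with a log2 ratio of at least 1.06 over unstimulated pMA and at least 1.45 over TNF-α. A probe described as frizzled-9 had 0.113, 0.0790, 0.148 and 0.0638. Its log2 ratio was -1.21 for serotonin against TNF-α and -0.31 for serotonin against unstimulated pMA. These identities rest on the array's descriptions of transcript clusters, partly by similarity to other species.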
